A study of Mus musculus with 4 samples.

Results

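The proteasome subunit genes were followed in RNA from splenic B cells of mice with and without NSD1, an enzyme that methylates histone H3 at lysine 36. Members were the genes whose symbol begins with Psma, Psmb, Psmc, Psmd or Psme and ends in a number, 43 of the 55401 genes in the deposited counts. They comprise 8 alpha subunits and 8 constitutive or tissue-restricted beta subunits of the 20S core, 3 immunoproteasome beta subunits (Psmb8, Psmb9 and Psmb10), 6 ATPases and 11 non-ATPase subunits of the 19S cap, 3 assembly chaperones of that cap, and 4 genes of the 11S cap and of PA200, another activator.

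The libraries came from splenic B220+ cells of C57BL/6J mice, 2 from NSD1B WT mice (Mb1-Cre+ NSD1+/+) and 2 from NSD1B KO mice (Mb1-Cre+ NSD1fl/fl). All 4 carry Mb1-Cre, a recombinase driven from the Cd79a locus in B lineage cells, so the genotypes differ in the floxed exons 6 to 8 of Nsd1 and not in Cre. The study used littermate controls and male and female mice of 7 to 9 weeks, and its methods do not state how many mice a library holds or the sex or age of the mice behind each library. Nothing states that the 2 libraries of a genotype came from separate mice, so p-values measure only the spread between these libraries, which may be technical.

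The 26S proteasome is the barrel-shaped protease that degrades proteins tagged with ubiquitin. Its 20S core is built from stacked rings of alpha and beta subunits, and the cutting sites lie on 3 of the beta subunits, Psmb6, Psmb7 and Psmb5. In lymphoid cells and under interferon, Psmb9, Psmb10 and Psmb8 take their places in newly built cores, and such immunoproteasomes shape the peptides shown on MHC class I. The 19S cap binds ubiquitin chains, unfolds the protein with its ring of ATPases and feeds it into the core, while the 11S cap of Psme1 and Psme2 opens the core without ubiquitin.

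Counts on genes ranged from 6769118 to 7566834 per library, and 11657 genes passed the filter on low counts. A gene was called higher or lower at an adjusted p below 0.05 with a fold change above 1.2 (edgeR, quasi-likelihood test, adjusted over all tested genes). Nsd1, the targeted gene, had 69.5 and 65.6 counts per 1000000 scaled counts (CPM, with TMM factors) in the NSD1B WT libraries and 39.4 and 41.6 in the NSD1B KO libraries. It fell by 0.74 on the log2 scale (SE 0.11, adjusted p = 8.08e-08, edgeR), and the counts are per gene, so the deleted exons were not measured apart. Of the 6 B cell markers, all were counted in every library and 5 were lower in NSD1B KO, among them Pax5 (39 and 46.7 against 4.17 and 4.6 CPM) and Cd79a (2033 and 1939 against 810 and 767 CPM). Lyz2, a myeloid gene, had 4441 to 5886 CPM in every library, although the sort was stated as over 98% pure. The summed CPM of 6 erythroid markers was 39.6 and 35.5 in NSD1B WT and 1943 and 1688 in NSD1B KO. Of 6 myeloid markers 4 were higher and 2 lower, with summed CPM of 4518 and 4624 against 5988 and 5647, most of it from Lyz2. Among them, S100a8 had 0 counts in both NSD1B KO libraries and S100a9 had 0 in both NSD1B WT libraries. Each passed the filter only through the other genotype, so it had to differ. Of 6 proliferation markers, the 5 tested were lower, with summed CPM of 62.3 and 68.9 against 12.2 and 10.5. Of these, Mki67, Top2a, Ccnb1 and Cdk1 had 0 counts in both NSD1B KO libraries. They passed the filter only through NSD1B WT, so they had to differ. Behind all these marker counts, 37.1% of all tested genes were called higher and 41.1% lower. The lists for T cells, NK cells and plasmacytoid dendritic cells summed to 55.8 to 106 CPM in every library, with Cd4, Cd8a, Ncr1, Gzma, Eomes and Siglech at 0. The plasma cell list summed to 231 and 216 against 169 and 174 CPM, with Sdc1 at 0. The part of these cell markers in the results that follow was not tested. In RNA from a sorted population, fewer cells of a type and less RNA per cell cannot be told apart.

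Together the members made up 1.04% of the scaled counts in each genotype, and their summed level changed little between the genotypes. The sums were 10352 and 10361 CPM in the NSD1B WT libraries and 10678 and 10041 CPM in the NSD1B KO libraries, so the NSD1B KO libraries lay on either side of the NSD1B WT libraries. Within that near-constant sum, single subunits moved in both directions. Of the 43 members, 41 were counted and tested, and Psma8 and Psmb11 had 0 counts in all 4 libraries. Among the 41, 8 were higher in NSD1B KO (19.5%), where 37.1% of all tested genes were higher. A further 16 were lower (39%), where 41.1% of all tested genes were lower, and 17 were not called. Psmd13 and Psmd9 had under 10 counts in each NSD1B KO library and passed the filter only through NSD1B WT, so they had to differ, and the counts over tested members support nothing by themselves.

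**Figure D1:**
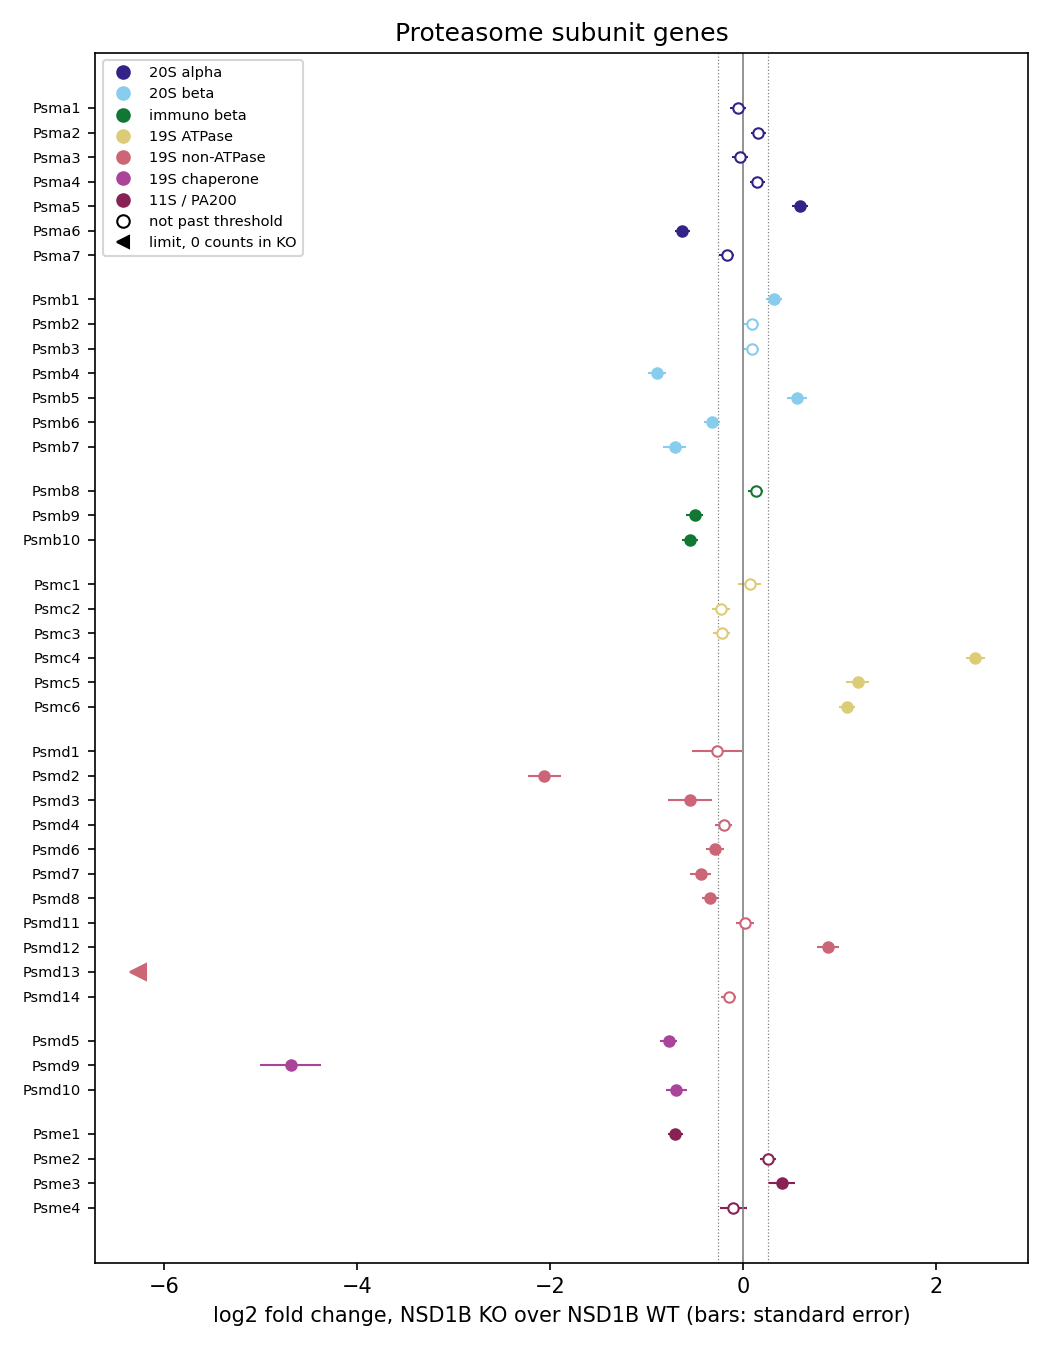
Log2 fold change of NSD1B KO over NSD1B WT for the 41 tested members, grouped by their place in the proteasome, with the standard error of the fit as bars, dotted lines at a fold change of 1.2 and open circles for genes not past the threshold. Psmc4, Psmc5 and Psmc6 stand on the right with 2.41, 1.19 and 1.08, Psmd2 and Psmd9 stand on the left with -2.06 and -4.69, and the triangle for Psmd13 marks the limit set by 0 counts in NSD1B KO.

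The members' changes were smaller than those of tested genes in general, many of which were counted at lower levels. The median log2 fold change was -0.17 over the members and -0.10 over all tested genes, and the median absolute log2 fold change was 0.337 over the members and 1.16 over all tested genes. Called with an absolute log2 fold change of at least 1 were 6 members (14.6%) and 54.2% of all tested genes. The members had a median level of 134 CPM, against 15.3 CPM for all tested genes. Among the 2125 tested genes between the lower and upper quartile of the members' levels (54.8 to 364 CPM), the median absolute log2 fold change was 0.55 and 75.4% were called in either direction, beside 15 of the 21 members in that window (71.4%). The libraries of the genotypes did not overlap for 36 members (87.8%) and for 88% of all tested genes. The shares of members without overlap and of members called within that window thus lay near the background, while the shares called higher and called with an absolute log2 fold change of at least 1 lay below it. Between the libraries of 1 genotype, the median absolute log2 ratio of the members was 0.069 in NSD1B WT and 0.114 in NSD1B KO.

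**Figure D2:**
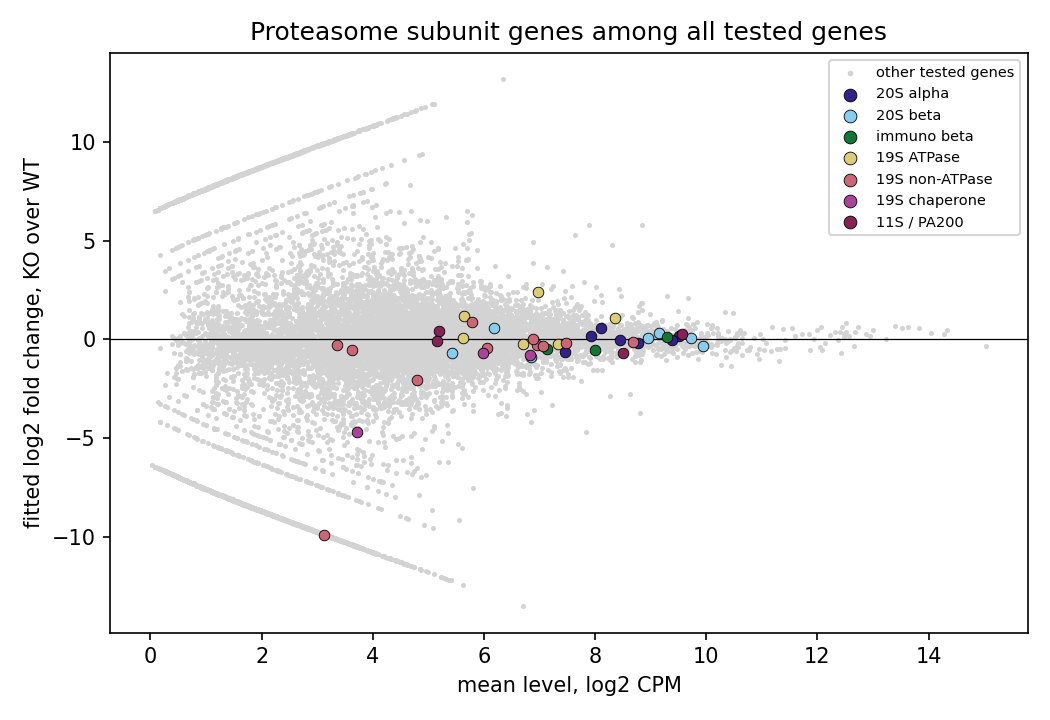
Fitted log2 fold change of NSD1B KO over NSD1B WT against mean level (log2 CPM) for all 11657 tested genes, with the members coloured by their place in the proteasome. Most members lie at higher levels than the grey genes and close to 0. Psmc4 has the largest increase among the members, though grey genes such as Cse1l (2.80 at a level of 6.75) rose more. Psmd13 sits on the curved lower band formed by genes with 0 counts in NSD1B KO, where the fitted value depends on the prior count.

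The split of calls depended on the scaling. When the dependence of counts on exon length and GC content was fitted and taken out in each library (length and GC adjustment), the median of all tested genes shifted from -0.10 to 0.16, and 16 members were called higher and 8 lower. With the fitted values first centred on their median in each library (centred adjustment), 10 were higher and 15 lower, and the median of all tested genes was -0.08. Relative to all tested genes, the members' median was lower in each of these fits (-0.17 against -0.10, 0.09 against 0.16 and -0.15 against -0.08). With NSD1B KO replicate 2 left out the relation turned, with -0.10 for the members and -0.16 for all tested genes.

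Among the alpha subunits, which form the outer rings and the gate of the core, most levels stayed close to those of NSD1B WT, and the exceptions were Psma5 and Psma6. Psma5 (chromosome 3, 108256926 to 108279974 in mm10, plus strand) had 222 and 215 CPM in NSD1B WT and 326 and 334 CPM in NSD1B KO. It rose by 0.59 on the log2 scale (SE 0.08, adjusted p = 4.14e-09, edgeR), and every NSD1B KO library lay above every NSD1B WT library. Psma6 (chromosome 12, 55384222 to 55418454, plus strand) went the other way, from 215 and 210 CPM to 137 and 137 CPM. It fell by 0.63 on the log2 scale (SE 0.08, adjusted p = 3.09e-09, edgeR), again without overlap. Of all tested genes, 88% had no overlap either. Both genes encode subunits of the same ring, which holds every alpha subunit in the same number of copies. The remaining 5 counted subunits, Psma1, Psma2, Psma3, Psma4 and Psma7, were not called and had log2 fold changes from -0.17 to 0.16. Psma8, the testis form that stands in for Psma7, had 0 counts in all 4 libraries, which allows at most 0.41 to 0.445 CPM per library at 3 counts. The ratio of Psma8 to Psma7 could therefore not be given.

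The constitutive beta subunits of the inner rings also moved in both directions, with 2 higher, 3 lower and 2 not called. Of all tested genes, 37.1% were called higher and 41.1% lower, so nothing particular to these subunits is read from the counts. Psmb5, the subunit with chymotrypsin-like activity (chromosome 14, 54614119 to 54618022, minus strand), had 60.1 and 57 CPM in NSD1B WT and 90 and 82.4 CPM in NSD1B KO. It rose by 0.56 on the log2 scale (SE 0.10, adjusted p = 3.22e-06). Psmb7, with trypsin-like activity (chromosome 2, 38588036 to 38644087, minus strand), had 51.4 and 54 CPM in NSD1B WT and 32.4 and 31.9 CPM in NSD1B KO, a fall by 0.71 on the log2 scale (SE 0.12, adjusted p = 1.23e-06). Psmb6, with caspase-like activity (chromosome 11, 70525367 to 70527858, plus strand), had 1112 and 1077 CPM in NSD1B WT and 891 and 859 CPM in NSD1B KO. It fell by 0.32 (SE 0.08, adjusted p = 1.32e-04), and its log2 fold change was 0.11 under the length and GC adjustment and -0.13 under the centred adjustment, neither past the threshold. The catalytic subunits thus had no common direction. For each of them the libraries of the genotypes did not overlap, as for 88% of all tested genes.

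Of the beta subunits without a cutting site, Psmb4 changed most. Psmb4 (chromosome 3, 94884093 to 94886961, minus strand) had 144 and 152 CPM in NSD1B WT and 85.4 and 74.5 CPM in NSD1B KO, a fall by 0.89 on the log2 scale (SE 0.09, adjusted p = 6.39e-12). Psmb1 rose by 0.32, from 496 and 511 CPM to 651 and 610 CPM, and was not past the fold threshold when scaled by library size alone (0.24). Psmb2 and Psmb3 were not called, each with a log2 fold change of 0.09. Psmb11, the beta subunit of thymic cortical epithelium, had 0 counts throughout, and lies 3410 bases from Psmb5 on chromosome 14. The exons of Psmb7 share 405 bases with Nek6 on the opposite strand, and Nek6 was also lower (24.5 and 35.2 against 22.5 and 24.1 CPM). The strand setting of the counting is not known, so reads in shared bases cannot be assigned with certainty.

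The summed level of the 14 counted constitutive core subunits was 6009 and 6002 CPM in NSD1B WT and 6158 and 5839 CPM in NSD1B KO. Per kilobase of exon, the levels of these subunits were more uneven in NSD1B KO. The standard deviation of their log2 CPM per kilobase was 1.33 and 1.32 in NSD1B WT and 1.49 and 1.51 in NSD1B KO. Psmb2 was the highest and Psmb7 the lowest in each library, 44.3 and 44.2 times apart in NSD1B WT and 78 and 76.8 times apart in NSD1B KO. Among the 7 counted alpha subunits alone, the standard deviation was 0.35 and 0.34 in NSD1B WT and 0.46 and 0.51 in NSD1B KO. In all these sets the libraries of a genotype were closer to each other than to the other genotype, and no test was made on the spread.

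The immunoproteasome subunits were all counted at high levels in both genotypes, and Psmb9 and Psmb10 were lower in NSD1B KO while Psmb8 was not called. Psmb8 (chromosome 17, 34197721 to 34201454, plus strand), which takes the place of Psmb5, had 619 and 585 CPM in NSD1B WT (602 ± 24.5, SD, n = 2 libraries) and 686 and 630 CPM in NSD1B KO (658 ± 39.6, SD, n = 2 libraries). Its log2 fold change was 0.13 (SE 0.08, adjusted p = 0.123), and although the libraries did not overlap, the gap was small beside their spread. Psmb9 (chromosome 17, 34181987 to 34187764, minus strand), which takes the place of Psmb6, had 166 and 161 CPM in NSD1B WT (164 ± 3.53, SD) and 119 and 112 CPM in NSD1B KO (116 ± 5.07, SD). It fell by 0.50 on the log2 scale (SE 0.09, adjusted p = 1.40e-06). Psmb10 (chromosome 8, 105935735 to 105938444, minus strand), which takes the place of Psmb7, had 313 and 290 CPM in NSD1B WT (302 ± 16.1, SD) and 210 and 203 CPM in NSD1B KO (207 ± 4.92, SD). It fell by 0.55 on the log2 scale (SE 0.08, adjusted p = 4.53e-08).

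These calls were sensitive to the length and GC adjustment. Under it, the log2 fold changes were 0.61 for Psmb8, 0.03 for Psmb9 and -0.03 for Psmb10, so that only Psmb8 was called. Under the centred adjustment, Psmb8 was higher by 0.37, Psmb9 was no longer called at -0.21, and Psmb10 kept its call. Psmb8 and Psmb9 lie in the MHC on both sides of Tap1, a subunit of the transporter that carries peptides to MHC class I. Psmb9 and Tap1 share 212 exonic bases on opposite strands, and 495 bases separate Tap1 from Psmb8. Tap1 was 2.3-fold lower in NSD1B KO (53.5 and 50.1 against 21 and 24.2 CPM). The exons of Psmb8 share 498 bases with the antisense gene Gm20496, which had 263 and 256 CPM in NSD1B WT and 333 and 312 CPM in NSD1B KO, so the counts of this pair cannot be told apart with certainty.

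For each position in the core, the level of the immunoproteasome subunit was set against that of its constitutive partner within a library, per kilobase of exon. The ratio of Psmb8 to Psmb5 was 2.74 and 2.73 in NSD1B WT and 2.03 and 2.03 in NSD1B KO. It was lower in both NSD1B KO libraries, and Psmb5 was the partner that had been called higher. The ratio of Psmb9 to Psmb6 was 0.0764 and 0.0765 in NSD1B WT and 0.0685 and 0.0669 in NSD1B KO. The ratio of Psmb10 to Psmb7 was 12.2 and 10.8 in NSD1B WT and 13 and 12.8 in NSD1B KO. The constitutive form was thus the more abundant transcript at the position of Psmb6 and the immunoproteasome form at the other positions, in both genotypes. For the 3 subunits summed, the ratio of immunoproteasome to constitutive forms was 0.61 and 0.591 in NSD1B WT and 0.613 and 0.601 in NSD1B KO, so the libraries of the genotypes overlapped. These ratios are descriptions, and their difference between genotypes was not tested.

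**Figure D3:**
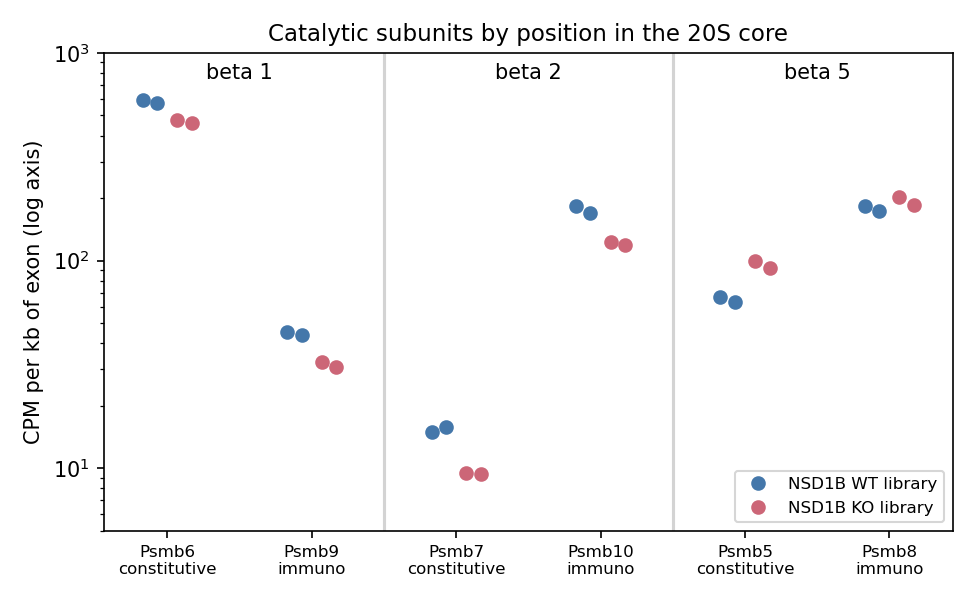
Level of the constitutive and immunoproteasome subunits at the 3 catalytic positions of the 20S core, in CPM per kilobase of exon on a log axis, with a point for each library. Psmb6 exceeded Psmb9 and Psmb10 exceeded Psmb7 by a wide margin in every library, while Psmb5 and Psmb8 lay closer in NSD1B KO (ratio 2.03 and 2.03) than in NSD1B WT (2.74 and 2.73).

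The largest increases were those of ATPases of the 19S base, the ring that unfolds substrates. Of 6 ATPases, Psmc4, Psmc5 and Psmc6 were higher, none was lower, and Psmc1, Psmc2 and Psmc3 were not called, where 37.1% of all tested genes were called higher. Psmc4 (chromosome 7, 28041707 to 28050101, minus strand) had 36.3 and 42.6 CPM in NSD1B WT (39.5 ± 4.44, SD) and 218 and 202 CPM in NSD1B KO (210 ± 11.5, SD). It was 5.32-fold higher, a log2 fold change of 2.41 (SE 0.10, adjusted p = 3.31e-26), the largest increase among the members. Psmc5 (chromosome 11, 106256154 to 106263120, plus strand) had 30.3 and 29.9 CPM in NSD1B WT and 73.3 and 64.6 CPM in NSD1B KO, a log2 fold change of 1.19 (SE 0.12, adjusted p = 1.23e-12). Psmc6 (chromosome 14, 45329788 to 45349705, plus strand) had 208 and 212 CPM in NSD1B WT and 461 and 427 CPM in NSD1B KO, a log2 fold change of 1.08 (SE 0.08, adjusted p = 8.08e-17). For all 3 genes every NSD1B KO library lay well above the NSD1B WT libraries, where 88% of all tested genes had no overlap. The ATPases occur in equal copy number in the ring.

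The summed level of the 6 ATPases was 615 and 612 CPM in NSD1B WT and 1063 and 974 CPM in NSD1B KO. Psmc1, Psmc2 and Psmc3 had log2 fold changes from -0.23 to 0.07, and Psmc2 at -0.23 and Psmc3 at -0.22 had adjusted p of 0.0167 and 0.0266 (edgeR) but were below the fold threshold. Psmc2 was called lower when scaled by library size alone (-0.31) or by the upper quartile (-0.26), with at least 1 CPM in all 4 libraries (-0.27), without NSD1B WT replicate 2 (-0.28), without NSD1B KO replicate 1 (-0.30) and under the centred adjustment (-0.39). Psmc3 was called lower with library size alone (-0.30) and without NSD1B KO replicate 1 (-0.30), and Psmc1 was called higher under the length and GC adjustment (0.41), as was Psmc3 (0.34). Per kilobase of exon, Psmc4 was the lowest of the 6 in both NSD1B WT libraries, with 16.8 and 19.7 CPM. In NSD1B KO it had 101 and 93.4 CPM per kilobase, and Psmc1 was the lowest with 27.2 and 25.1. Psmc6 was the highest in every library. The exons of Psmc3 share 215 bases with Slc39a13 on the opposite strand, a gene at 7.41 and 6.69 CPM in NSD1B WT and at 0 counts in NSD1B KO.

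**Figure D4:**
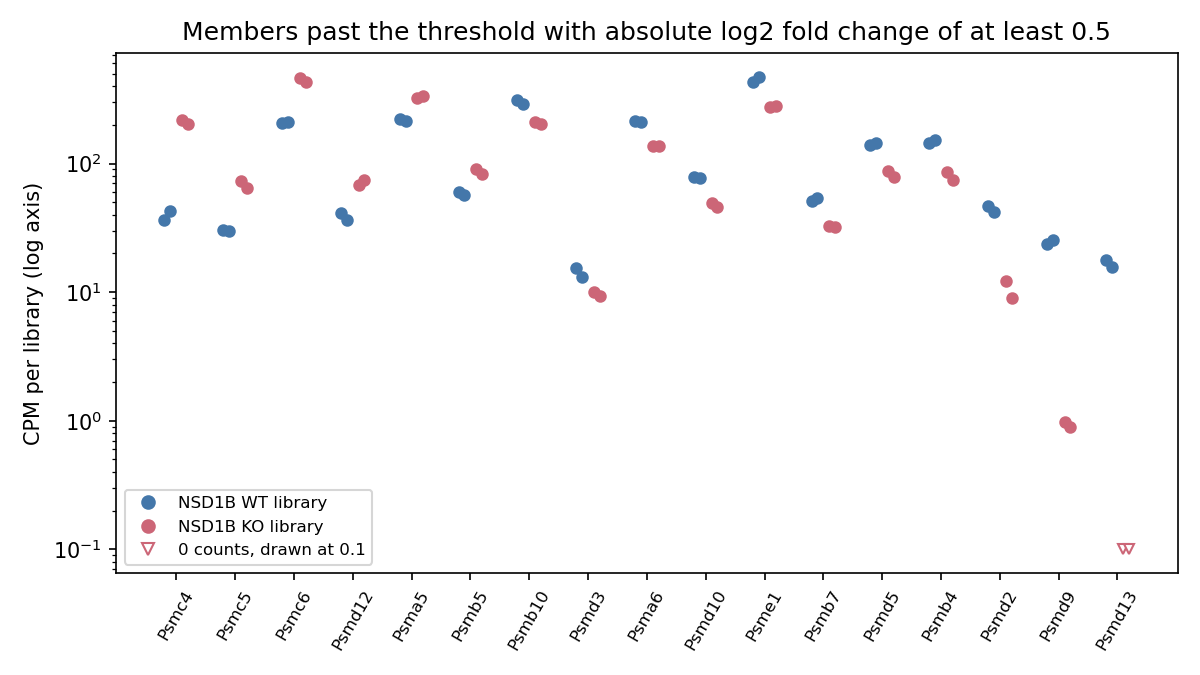
CPM per library, on a log axis, of the 17 members past the threshold with an absolute log2 fold change of at least 0.5, ordered by their change. The libraries of a genotype lie apart from the other genotype for each gene, which follows from choosing the genes by their change. Of all tested genes, 88% had no overlap between the genotypes. The genes run from Psmc4 (36.3 and 42.6 against 218 and 202 CPM) to Psmd13. The NSD1B KO libraries of Psmd13 have 0 counts and are drawn as open triangles. Psmd13 and Psmd9 passed the filter only through NSD1B WT.

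The non-ATPase subunits of the 19S cap, which build its scaffold and its lid, moved in both directions. Of 11, 6 were lower (Psmd2, Psmd3, Psmd6, Psmd7, Psmd8 and Psmd13), beside 41.1% of all tested genes, Psmd12 was higher and 4 were not called. Of the 6, Psmd13 passed the filter only through NSD1B WT, and 4 lost their call under at least 1 alternative. The summed level of all 11 was 1233 and 1213 CPM in NSD1B WT and 1095 and 1018 CPM in NSD1B KO. Psmd2, the scaffold of the base that receives ubiquitin-binding shuttle proteins (chromosome 16, 20651652 to 20663414, plus strand), had 46.5 and 42.2 CPM in NSD1B WT (44.4 ± 3.06, SD) and 12.1 and 9.06 CPM in NSD1B KO (10.6 ± 2.14, SD). It fell by 2.06 on the log2 scale (SE 0.17, adjusted p = 1.65e-15), while its partner scaffold Psmd1 had a log2 fold change of -0.27 that was not called (SE 0.26), with 62, 95, 54 and 71 counts in NSD1B WT replicates 1 and 2 and NSD1B KO replicates 1 and 2.

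Psmd13, a subunit of the lid (chromosome 7, 140881968 to 140898643, plus strand), had 127 and 114 counts in the NSD1B WT libraries (17.8 and 15.6 CPM) and 0 counts in both NSD1B KO libraries. Set against a limit of 3 counts over the NSD1B KO group (0.2152 CPM, counting error only), it was at least 77.4-fold lower (adjusted p = 2.45e-17, edgeR). It was the only member at 0 in 1 genotype alone, a pattern that 1313 tested genes (11.3%) showed in NSD1B KO and 890 (7.63%) in NSD1B WT. Sirt3, a mitochondrial deacetylase, starts head to head with Psmd13 on the opposite strand and shares 342 exonic bases with it. Sirt3 rose from 13.4 and 13.1 CPM to 23.5 and 24.9 CPM, a log2 fold change of 0.87 (SE 0.18, adjusted p = 3.25e-05). Without a known strand setting, reads in the shared bases cannot be told apart.

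Other subunits of the lid differed in direction. Psmd12 (chromosome 11, 107479484 to 107504362, plus strand) had 41.2 and 36.1 CPM in NSD1B WT and 67.9 and 74.1 CPM in NSD1B KO, a log2 fold change of 0.88 (SE 0.11, adjusted p = 1.98e-09). Psmd3 (chromosome 11, 98682554 to 98695979, plus strand) had 15.5 and 13 CPM in NSD1B WT and 10.1 and 9.35 CPM in NSD1B KO, a log2 fold change of -0.55 (SE 0.23, adjusted p = 0.0253). This call was weak, since it was lost with NSD1B WT replicate 1 left out (-0.38, adjusted p = 0.251), with NSD1B KO replicate 2 left out (-0.48, adjusted p = 0.0730), in DESeq2 (adjusted p = 0.120), in limma-voom (adjusted p = 0.0531) and under the length and GC adjustment (-0.04) and its centred form (-0.28). Psmd6, Psmd7 and Psmd8 fell by 0.29, 0.44 and 0.34 on the log2 scale. The call of Psmd6 was lost with NSD1B WT replicate 2 (-0.24) or NSD1B KO replicate 2 (-0.22) left out, that of Psmd8 with NSD1B KO replicate 2 left out (-0.26), and all 3 calls under the length and GC adjustment. The call of Psmd8 was also lost under the centred adjustment (-0.09). Psmd14, the lid's deubiquitinase, Psmd4, a ubiquitin receptor, Psmd11 and Psmd1 were not called, with log2 fold changes from -0.27 to 0.02. Psmd14 was called lower under the centred adjustment (-0.37). Psmd4 was called lower with library size alone (-0.28) and higher under the length and GC adjustment (0.31). With NSD1B KO replicate 1 left out, Psmd4 had a log2 fold change of -0.30.

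The 3 assembly chaperones, which bind ATPases before the base is complete and are absent from the finished particle, were all lower. Of all tested genes, 41.1% were called lower. Psmd9 (chromosome 5, 123169413 to 123250131, plus strand) had 169 and 186 counts in NSD1B WT (23.6 and 25.4 CPM). In NSD1B KO it had 7 and 6 counts (0.972 and 0.891 CPM). It passed the filter only through NSD1B WT, so it had to differ. It fell 25.8-fold, a log2 fold change of -4.69 (SE 0.32, adjusted p = 2.30e-18). Its exons share 1849 bases, 25.5% of their length, with the non-coding gene Gm26745 on the opposite strand. Psmd5, which binds the product of Psmc2 (chromosome 2, 34849734 to 34874968, minus strand), had 139 and 144 CPM in NSD1B WT and 88.2 and 78.1 CPM in NSD1B KO, a log2 fold change of -0.77 (SE 0.09, adjusted p = 2.93e-10). Psmd10, or gankyrin, which binds the product of Psmc4 (chromosome X, 140948429 to 140956728, minus strand), had 78 and 76.9 CPM in NSD1B WT and 49.7 and 46.3 CPM in NSD1B KO, a log2 fold change of -0.69 (SE 0.11, adjusted p = 1.12e-07). The chaperones summed to 241 and 246 CPM in NSD1B WT and to 139 and 125 CPM in NSD1B KO. The 6 ATPases together summed higher in NSD1B KO, but not each of them rose. Psmc2, the partner of Psmd5, had a log2 fold change of -0.23 and was not called.

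Over the 16 subunits of the 19S cap counted in all libraries, the standard deviation of log2 CPM per kilobase was 1.72 and 1.65 in NSD1B WT and 2.07 and 2.01 in NSD1B KO. Over the 6 ATPases alone it was 0.68 and 0.63 in NSD1B WT and 0.93 and 0.94 in NSD1B KO. In both sets the subunit levels were more uneven in the NSD1B KO libraries, as in the core.

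Promoter sequence was at hand for 36 of the 43 members (RefSeq, GRCm38.p6, 250 bases before to 50 after each start). For the members called with an absolute log2 fold change of at least 1, the longest stretch before the start that lies outside annotated exons is shown, so that the regions of the higher genes (Psmc4, Psmc5 and Psmc6) and the lower genes (Psmd2 and Psmd9) can be compared. None is shown for Psmd13, whose window is covered by annotated exons. Capitals mark the matches to TGACNNNGC, a core of the antioxidant response element bound by NFE2L1 and NFE2L2, and to an interferon response element (GAAA, any 2 bases, GAAA), on either strand. The windows are chr7:28050102-28050342 on the minus strand for Psmc4, chr11:106256080-106256153 on the plus strand for Psmc5, chr14:45329574-45329787 on the plus strand for Psmc6, chr16:20651402-20651651 on the plus strand for Psmd2 and chr5:123227940-123228189 on the plus strand for Psmd9, each written 5′ to 3′. The window of Psmd9 lies within the gene's span in GENCODE M21, which begins further upstream than the RefSeq start.
Psmc4: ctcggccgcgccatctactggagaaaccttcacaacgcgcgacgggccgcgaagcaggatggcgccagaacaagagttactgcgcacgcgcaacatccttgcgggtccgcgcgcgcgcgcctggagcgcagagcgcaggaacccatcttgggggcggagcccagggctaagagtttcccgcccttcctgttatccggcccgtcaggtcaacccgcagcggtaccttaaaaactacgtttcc
Psmc5: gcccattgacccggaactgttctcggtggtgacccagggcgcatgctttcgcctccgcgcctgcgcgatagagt
Psmc6: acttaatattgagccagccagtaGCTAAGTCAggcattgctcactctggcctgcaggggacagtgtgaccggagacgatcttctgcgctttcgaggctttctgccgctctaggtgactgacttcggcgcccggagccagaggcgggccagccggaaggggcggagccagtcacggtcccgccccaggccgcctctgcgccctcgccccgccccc
Psmd2: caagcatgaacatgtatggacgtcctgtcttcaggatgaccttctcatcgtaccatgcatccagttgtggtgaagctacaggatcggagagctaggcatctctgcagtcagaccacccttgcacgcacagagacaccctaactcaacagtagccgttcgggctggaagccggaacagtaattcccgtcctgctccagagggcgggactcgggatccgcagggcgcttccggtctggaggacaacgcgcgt
Psmd9: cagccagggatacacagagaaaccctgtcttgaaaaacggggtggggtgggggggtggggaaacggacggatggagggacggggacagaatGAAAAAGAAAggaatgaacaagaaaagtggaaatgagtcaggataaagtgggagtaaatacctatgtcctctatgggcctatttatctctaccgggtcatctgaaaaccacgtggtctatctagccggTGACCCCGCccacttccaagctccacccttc
The window of Psmc6 holds 1 match to the antioxidant letters, that of Psmd9 holds 1 match to each motif, and those of Psmc4, Psmc5 and Psmd2 hold neither.

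Across the matched members, these letters were about as frequent as in promoters at large for the antioxidant motif. TGACNNNGC was found in 6 of 36 members (16.7%) and in 12.4% of the 32851 promoters of the same length. The 6 were Psmb5, Psmc6 and Psmd12, which were higher, Psmb6 and Psmd9, which were lower, and Psme4, which was not called. The interferon letters were found in 4 of 36 (11.1%) and in 3.44% of all promoters. The 4 were Psmb3 and Psmd4, not called, and Psmd9 and Psme1, both lower, while the matched immunoproteasome genes did not hold these letters in this window. CCAAT, another motif of many promoters, was found in 14 of 36 (38.9%) and in 37.4% of all promoters. Each motif was counted on its own, so matches of different motifs may overlap, and a match is a description of sequence and not a binding site.

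The 11S cap showed opposite values for its partner subunits. Psme1 (chromosome 14, 55578123 to 55581529, plus strand) had 429 and 474 CPM in NSD1B WT (451 ± 32, SD) and 275 and 280 CPM in NSD1B KO (278 ± 3.91, SD), a fall by 0.70 on the log2 scale (SE 0.08, adjusted p = 5.10e-11). Psme2, which joins Psme1 in the same ring and lies 5911 bases away on the opposite strand, had 657 and 712 CPM in NSD1B WT and 855 and 787 CPM in NSD1B KO. Its log2 fold change of 0.26 (SE 0.08, adjusted p = 0.00201, edgeR) was just below the fold threshold. Psme2 was called higher with DESeq2 size factors (0.27), with 1 count in any library (0.27) and in the DESeq2 Wald test (0.27). It was also called with at least 1 count in each library (0.28) and under the centred adjustment (0.51). With NSD1B WT replicate 2 or NSD1B KO replicate 2 left out, its log2 fold change was 0.34 and 0.33. Per kilobase, the ratio of Psme1 to Psme2 was 0.521 and 0.532 in NSD1B WT and 0.257 and 0.284 in NSD1B KO, 1.95 times lower. Under the length and GC adjustment, Psme1 had a log2 fold change of -0.15 and was not called, and Psme2 was called higher at 0.75. Psme3, the nuclear form of this cap, rose by 0.40 (33.8 and 28.7 against 41.7 and 40.7 CPM, adjusted p = 0.00696), a call lost with NSD1B WT replicate 2 left out (0.31, adjusted p = 0.0733) and in DESeq2 (adjusted p = 0.0524). Psme4, which encodes PA200, was not called (-0.10).

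Across the 40 tested members counted in both genotypes, the log2 fold change had a Pearson correlation of -0.35 with log2 exon length, -0.08 with GC content and 0.34 with log2 mean CPM. The absolute log2 fold change had a correlation of -0.44 with log2 mean CPM. These values are descriptions across genes of the same 4 libraries, which share depth and scaling, and genes are not independent replicates.

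Genes that assemble, regulate or feed the proteasome were taken from a list of 41 that matched a gene. Of 40 tested, 11 were higher and 19 lower, where 37.1% and 41.1% of all tested genes were called higher and lower. The same shares stand behind the counts of the smaller lists that follow, from which nothing particular to a list is read. The median log2 fold change of the 40 was -0.26, beside -0.10 for all tested genes. Of the 5 assembly factors of the core, 3 were lower. Psmg2 had 142 and 142 CPM in NSD1B WT and 11.9 and 8.31 CPM in NSD1B KO, a 13.9-fold fall (log2 fold change -3.80, SE 0.13, adjusted p = 2.70e-29). Psmg2 pairs with Psmg1 in building the alpha ring, and Psmg1 was not called (-0.19). Psmg3 and Psmg4, which also form a pair, fell by 1.34 and 0.88 on the log2 scale. The call of Psmg3, with 11 to 41 counts in a library, was lost with NSD1B WT replicate 1 left out (adjusted p = 0.0528). Pomp, the maturation factor of the core, had a log2 fold change of 0.00 (362 and 371 against 382 and 353 CPM).

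Of 10 proteins that bind the proteasome, 2 were higher and 6 lower. Akirin2, which takes part in the nuclear import of proteasomes, rose from 7.55 and 7.51 CPM to 32.1 and 31 CPM (log2 fold change 2.06, SE 0.19, adjusted p = 1.22e-13). Ecpas, a proteasome adaptor, fell from 40.7 and 38.3 CPM to 8.75 and 8.76 CPM (-2.17, SE 0.17, adjusted p = 1.29e-15). The ubiquitin ligase Ube3c fell by 1.74, the ubiquitin receptor Adrm1 by 0.64 and the deubiquitinase Usp14 by 0.56, while the deubiquitinase Uchl5 rose by 0.93. Adrm1 was not called under the length and GC adjustment (-0.11). Among 8 genes that deliver substrates, Rad23b and Ubqln1 fell by 1.08 and 0.65 on the log2 scale, and Ubqln4, Nploc4 and Ufd1 rose by 2.07, 1.93 and 1.11. Of the 4 tested ubiquitin and ubiquitin-activating genes 3 were lower, all by less than 0.5.

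Of 6 genes for transcription of proteasome subunits, 3 were higher and 1 lower. Nfe2l1, whose product raises proteasome genes when proteasome activity falls, was not called (0.18). Nfe2l2 and Ngly1, the deglycosylase that activates the product of Nfe2l1, rose by 0.67 and 0.52. Their small Maf partners went in opposite directions, Mafg from 7.97 and 12.2 CPM to 0.417 and 0.445 CPM and Mafk from 2.1 and 2.46 CPM to 30 and 24.9 CPM. Mafg had 3 counts in each NSD1B KO library and passed the filter only through NSD1B WT. Of 7 genes of interferon signalling and MHC class I, B2m and Nlrc5 rose by 0.60 and 0.98 on the log2 scale. Tap1, Tap2 and Irf1 were lower, Tap2 and Irf1 by 1.76-fold and 1.45-fold. B2m, the light chain of MHC class I, had 4445 and 4413 CPM in NSD1B WT and 6718 and 6701 CPM in NSD1B KO, a difference far beyond the spread between libraries. The call of Tap2 was lost with NSD1B WT replicate 1 left out (-0.40, adjusted p = 0.162), in limma-voom and under the length and GC adjustment, and that of Irf1 under this adjustment (-0.06).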

How the data were processed

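RNA from B220+ spleen B cells was sequenced in 4 libraries, 2 for each genotype. The values the authors deposited are whole-number read counts for each gene, without normalization or length scaling. Their methods describe paired-end reads mapped to mm10 with Bowtie2, which does not split reads over introns. FPKM values from Cufflinks were not used here. The counting program, strandedness and gene annotation were not given in the sources used here. Reads on no gene made up 44.3% to 44.6% and were left out, as were ambiguous reads (2.21% to 2.41%) and reads that were not unique (11.2% to 13.2%).

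Genotypes were taken from the labels. Counts were filtered (filterByExpr, minimum 10, total 15), scaled by TMM and tested with the quasi-likelihood test of edgeR 4.0.16 in R 4.3.3, p adjusted by Benjamini-Hochberg over all 11657 tested genes. The SE is the absolute log2 fold change over the square root of F. No permutation test was made for single genes, since 2 libraries in each genotype are too few to reach 0.05. CPM are counts per 1000000 after TMM scaling, and levels between genes are per kilobase of merged exons in GENCODE M21, which matched 55141 identifiers (99.5%). A gene at 0 in a genotype was set at 3 counts over the group, for counting error only. The procedure was tested on simulated data. The numbers of the libraries were not shown to pair them (correlation of deviations 0.0645).

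Members and lists were chosen with earlier results of these data known. Every member was named. Full statistics were given for the catalytic subunits and their immunoproteasome forms, members past the threshold by at least 0.5 on the log2 scale and members at 0 in a genotype. Genes of the other list were named by the same size of change, and Nsd1 as the target. A few genes of the lists are not reported here by name. Psmg1, Pomp, Nfe2l1, Psmf1 and the overlapping genes were named after their values were seen. Alternatives were other scalings (DESeq2 1.42.0 size factors, library size, upper quartile), filters and tests (DESeq2, limma-voom in limma 3.58.1), immunoglobulin genes left out, each library left out, the replicate number as a block, a stricter threshold and an adjustment for exon length and GC content (loess on both, span 0.5). Added after the data were seen were a filter of at least 1 count in each library and the centring of that adjustment.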

Additional observations from a re-analysis of the deposited data

How the results depend on the processing

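With 2 libraries for each genotype, the depth of 6769118 to 7566834 counts limits genes at a few counts. Of the 41 tested members 14, and of the 67 genes with full or named values 36, kept their direction and their side of the threshold in every alternative that tested them. The members' median was -0.25 with library size alone and ran from -0.27 to -0.10 with each library left out. Under the planned adjustment for exon length and GC content the median was 0.09, 16 members were higher and 8 lower, and 12 genes of the other list were lower when the replicate block was added. It also moved the median of all tested genes from -0.10 to 0.16, and the centred form was chosen after these values were seen. With the centred form 10 members were higher, 15 lower and the median was -0.15, with or without the replicate block. With the stricter threshold (adjusted p below 1e-05, log2 change beyond 0.5), 10 members and 10 genes of the other list were lower. With the replicate block alone 8 members were higher and 16 lower, no call of a named gene changed, and the libraries share only a number. With at least 1 count in each library 9 members were higher and 15 lower. The cause of these differences was not tested.

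Directions that turned are given as log2 fold changes. With the length and GC adjustment, also with the replicate block, they were 0.02 for Psma1, 0.00 for Psma3, 0.40 and 0.39 for Psma7, 0.11 for Psmb6, 0.03 for Psmb9, 0.34 for Psmc3, 0.31 and 0.30 for Psmd4 and 0.15 for Psmd8. With the centred adjustment, also with the block, they were -0.09 for Psma2, -0.02 for Psma4, 0.16 and 0.15 for Psma7, 0.10 for Psmc3, -0.15 for Psmd11 and 0.07 and 0.06 for Psmd4. With library size alone they were -0.01 for Psmc1 and -0.06 for Psmd11, which was -0.02 with upper quartile scaling and with at least 1 CPM in all 4 libraries. With each library left out, values ran from -0.10 to 0.03 for Psma3, from -0.52 to 0.08 for Psmd1, from -0.27 to 0.06 for Psme4 and from -0.07 to 0.15 for Psmd11. Of these genes only Psmb6, Psmb9 and Psmd8 were called in the report.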

Other observations

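Psmc3ip, whose symbol resembles those of the members but whose product takes part in meiotic recombination, had 5 and 5 counts in NSD1B WT and 39 and 51 counts in NSD1B KO, a fitted log2 fold change of 3.20. With under 10 counts in each NSD1B WT library it passed the filter only through NSD1B KO, so it had to differ, and it was named after its values were seen. Psmf1, which encodes the proteasome inhibitor PI31, fell by 0.47, from 187 and 174 CPM to 132 and 129 CPM. Copies of members elsewhere in the genome held few counts, with 21 to 35 for Psma5-ps, 4 to 10 for Psme2b and 1 to 4 for Psmb6-ps2 in a library.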
